A study of Mus musculus with 93 samples.

Results

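The Wnt and beta-catenin signaling genes were 46 genes chosen by name: 7 Wnt ligands, 2 genes of ligand secretion, 11 receptors and co-receptors, 3 dishevelled genes, 6 genes of the destruction complex and beta-catenin itself, 7 nuclear effectors, 7 secreted inhibitors and 3 intracellular or membrane inhibitors. All 46 were found among the 24528 genes of each of the 2 deposited expression tables. Of these, 45 entered the tests. Dkk1, a secreted inhibitor that binds the LRP co-receptors, was not tested, because littermates of the same sex had identical values in 14 of 38 pairs at postnatal day (PND) 5 and 12 months and in 6 of 6 pairs from 4 litters at 18 months.

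Poly(A)-selected, stranded RNA-seq was made from the cortex of one hemisphere of each mouse. Chd8V986*/+ mice carry a germline nonsense allele of Chd8, a chromatin remodeler, in every cell, and were compared with WT littermates from Chd8V986*/+ sires and C57BL/6J dams. Dams ate peanut butter with the pyrethroid deltamethrin (DM, 3 mg/kg in oil) or with oil alone every 3 days from conception, until the pups were taken at PND 5 or until PND 22 for the 12-month mice, so that exposure was given to whole litters. At PND 5 there were 10 Chd8V986*/+ DM, 10 Chd8V986*/+ oil, 12 WT DM and 12 WT oil mice of both sexes from 7 DM and 6 oil litters. At 12 months there were 10 Chd8V986*/+ DM, 9 Chd8V986*/+ oil, 10 WT DM and 9 WT oil mice, all male, from 10 DM and 9 oil litters that each gave 1 mouse per genotype. At 18 months there were 5 Chd8V986*/+ and 6 WT untreated males, in a separate table.

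In canonical Wnt signaling a secreted Wnt binds a Frizzled receptor and an LRP5 or LRP6 co-receptor, dishevelled is recruited, and the destruction complex of APC, Axin and GSK3 no longer marks beta-catenin for degradation. Beta-catenin then enters the nucleus, binds TCF/LEF factors and activates target genes, Axin2 among them. In the developing cortex the pathway acts in progenitor proliferation, patterning, axon growth and the formation of vessels, and CHD8 is known from other systems to bind beta-catenin.

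Dvl1 and Gsk3b were, with Apc, the members called between genotypes at 12 months, Gsk3a is the paralog of Gsk3b, and Axin2 was the member called in both genotypes between DM and oil at PND 5. The 250 bases before the RefSeq start of these 4 genes (assembly GRCm38.p6) are shown as their nearest regulatory sequence. Capitals mark the 6-letter core of the TCF/LEF motif, CTTTGA read on either strand.
Axin2 (chr11:108920099-108920348, plus strand): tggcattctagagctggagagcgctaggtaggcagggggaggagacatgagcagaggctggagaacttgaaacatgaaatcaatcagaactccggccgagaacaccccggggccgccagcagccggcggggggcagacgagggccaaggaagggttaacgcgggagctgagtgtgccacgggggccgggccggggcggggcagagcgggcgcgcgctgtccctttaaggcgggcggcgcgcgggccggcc
Dvl1 (chr4:155847152-155847401, plus strand): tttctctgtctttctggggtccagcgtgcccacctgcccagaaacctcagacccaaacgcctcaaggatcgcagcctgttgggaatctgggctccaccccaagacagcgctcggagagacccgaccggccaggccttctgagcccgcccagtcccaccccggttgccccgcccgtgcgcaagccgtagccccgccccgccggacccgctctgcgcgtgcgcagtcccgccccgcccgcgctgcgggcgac
Gsk3a (chr7:25237852-25238101, minus strand): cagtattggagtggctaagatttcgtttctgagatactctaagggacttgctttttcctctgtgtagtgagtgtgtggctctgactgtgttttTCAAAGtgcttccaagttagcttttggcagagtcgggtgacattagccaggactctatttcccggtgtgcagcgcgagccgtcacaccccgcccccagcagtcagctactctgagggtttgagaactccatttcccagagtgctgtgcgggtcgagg
Gsk3b (chr16:38088751-38089000, plus strand): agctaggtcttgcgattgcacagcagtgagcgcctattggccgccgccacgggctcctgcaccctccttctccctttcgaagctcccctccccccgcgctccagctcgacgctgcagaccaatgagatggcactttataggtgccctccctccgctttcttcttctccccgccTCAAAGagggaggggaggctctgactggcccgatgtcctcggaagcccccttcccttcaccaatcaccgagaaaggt

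The core stood 157 bases before the start of Gsk3a and 77 bases before that of Gsk3b, and was in neither of the windows of Axin2 and Dvl1. RefSeq promoter windows of 300 bases (250 before and 50 after the start) were matched for 31 of the 46 members, in 40 windows. The 7-letter motif CTTTGAT, searched on both strands, was in 0 of these 40 windows, against 3.73% of all 32851 windows. The 6-letter core, which the 7-letter motif contains, was in 5 of 40 windows (12.5%, of Dkk1, Fzd1, Gsk3a, Gsk3b and Lef1), against 16.0% of all windows. A match is a description of letters, not a binding site.

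Values are deposited log2 levels after variance stabilization, from which the technical terms had been removed, so their zero is arbitrary and they are compared only within a gene and a table. Group levels below are given as lowest, median and highest after the same terms were fitted, differences are log2 differences with standard errors (SE), and a member is called when the Benjamini-Hochberg adjusted p of limma over all genes tested is under 0.05 (15471 genes at PND 5 and 12 months, 16419 at 18 months). Chd8 was lower in Chd8V986*/+ mice in every comparison, by 0.48 (SE 0.091) in DM and 0.59 (SE 0.091) in oil at PND 5, by 0.69 (SE 0.095) in DM and 0.61 (SE 0.10) in oil at 12 months, and by 0.51 (SE 0.034) at 18 months. It was lower in the mutant in 42 of 43 littermate pairs, of which 2 at 18 months share 1 mutant. The exception was the female pair of PND 5 litter B (DM), where the library labelled Chd8V986*/+ DM F1 had 12.46 and the library labelled WT DM F1 had 11.79. Results that this pair touches are given without it where it changed a call. At 12 months the mutants of the 2 oil litters of batch 1 stood apart: the mean of 76 ribosomal protein genes was 0.70 and 0.69 above that of their littermates, against -0.14 to 0.24 in the other 41 pairs. All 8 markers of excitatory cortical neurons were detected without ties in both tables.

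**Figure D1:**
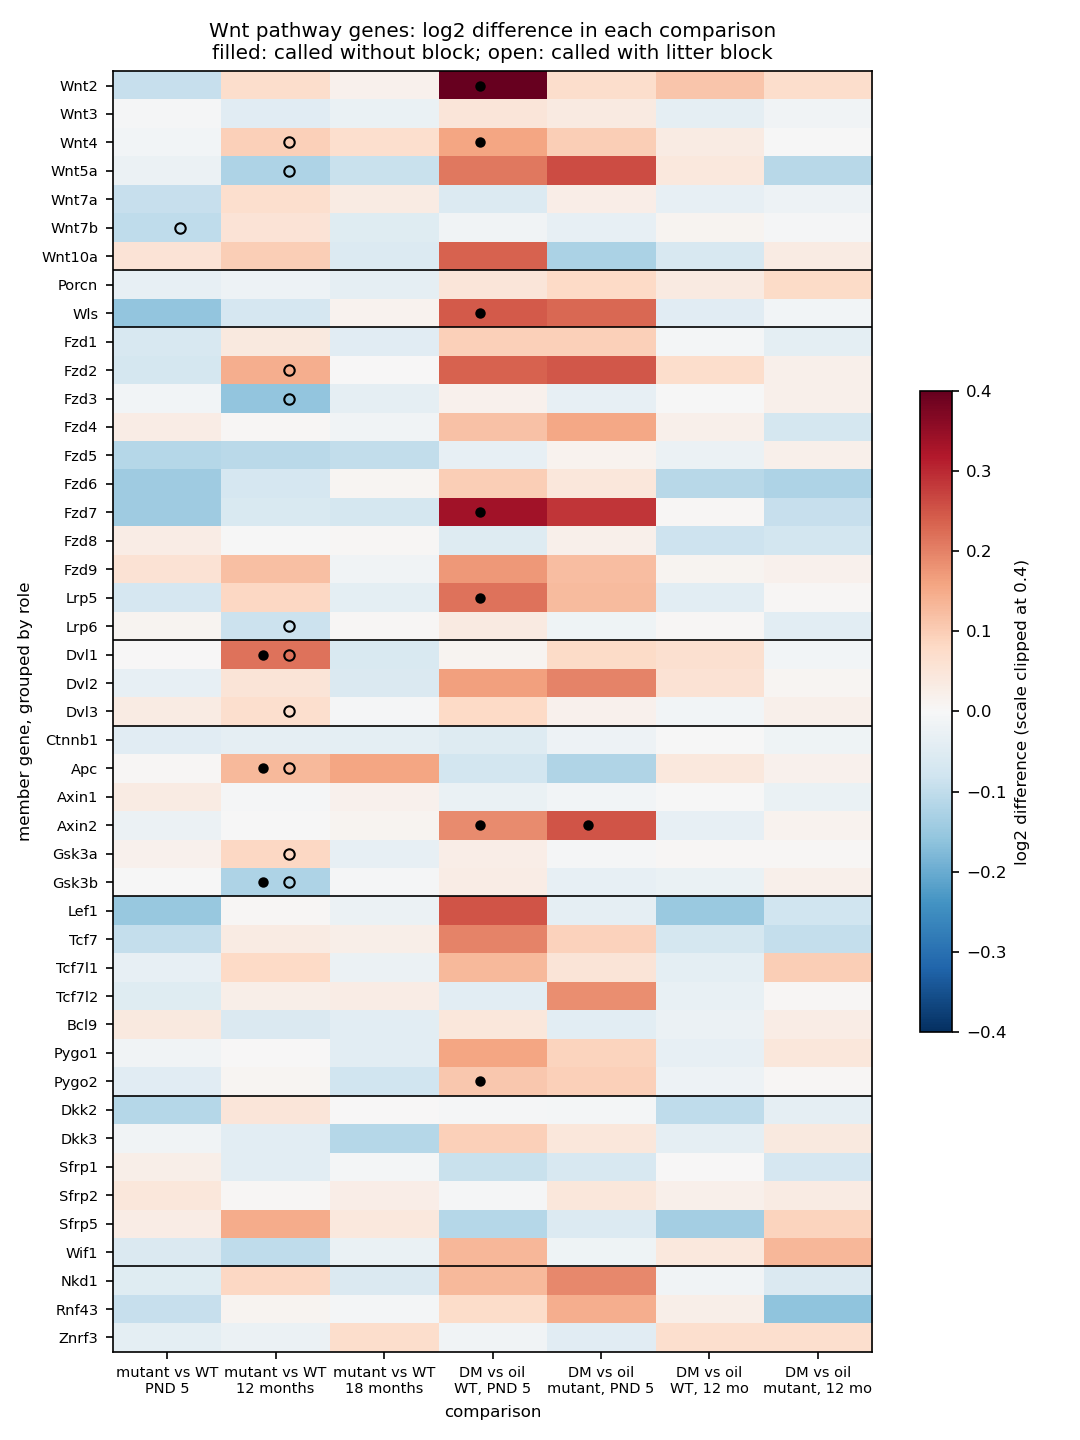
Log2 difference of 45 members (down, by role) in 7 comparisons (across), with colour clipped at 0.4. Mutant stands for Chd8V986*/+. A filled dot marks a call without litter as a block and an open dot a call with it, so a member can carry both. Without the block, calls between genotypes are found at 12 months (3 members, against 16.9% of all genes). Between DM and oil they are found at PND 5 (1 member in Chd8V986*/+ and 7 in WT, against 2.31% and 8.71%). With the block, 1 member is called between genotypes at PND 5 and 10 at 12 months (3.26% and 32.1% of all genes). With it 0 members are called between DM and oil.

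In 12-month cortex, with both exposures averaged, Apc and Dvl1 rose and Gsk3b fell in Chd8V986*/+ mice relative to WT mice. Each of these differences was small, between 0.12 and 0.22 in size. The 3 members made up 6.67% of the 45 tested, against 16.9% of all genes (7.81% higher and 9.12% lower), so the members were called less often than genes in general, a difference that was not tested. Comparing littermates (litter as a block, which the labels tie to each mouse) called 10 members, 22.2% against 32.1% of all genes.

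Apc, the scaffold of the destruction complex, lay at 15.97, 16.11 and 16.27 in Chd8V986*/+ DM mice and 15.93, 16.07 and 16.32 in Chd8V986*/+ oil mice (lowest, median, highest), against 15.89, 15.99 and 16.12 in WT DM mice and 15.90, 15.92 and 16.07 in WT oil mice. The groups overlapped, with the mutant medians near the highest WT mice. The difference was +0.13 (SE 0.032, adjusted p = 0.00353; with litter as a block 8.02e-04), and Apc was higher in the mutant in 14 of 19 littermate pairs. The call was lost without batch 1 (+0.08, adjusted p = 0.121) and with sample weights, by which limma gives more variable libraries less say (+0.07, 0.097). In the pairs outside batch 1 Apc was higher in 10 of 15.

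Gsk3b encodes a kinase that phosphorylates beta-catenin for degradation. It lay at 13.70, 13.96 and 14.16 in Chd8V986*/+ DM mice and 13.62, 13.97 and 14.12 in Chd8V986*/+ oil mice, against 13.84, 14.09 and 14.32 in WT DM mice and 13.82, 14.10 and 14.37 in WT oil mice, again with overlap. The difference was -0.12 (SE 0.046, adjusted p = 0.048, with litter as a block 4.74e-05), and it was lower in the mutant in 16 of 19 pairs. Leaving out single mice lost the call in 23 of 38 cases. It was also lost with sample weights (-0.08, 0.0602), with no filter (0.0617), with no intensity trend (0.052), with batch as a number (0.0974) and without batch 2, 3 or 4 (0.0531 to 0.108). Its paralog Gsk3a went the other way in level, at 12.19, 12.24 and 12.39 in Chd8V986*/+ DM mice and 12.07, 12.22 and 12.59 in Chd8V986*/+ oil mice, against 12.04, 12.18 and 12.27 in WT DM mice and 12.04, 12.14 and 12.34 in WT oil mice. Its difference of +0.08 (SE 0.031) was called only with the block (adjusted p = 0.0176, against 0.0592 without).

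Dvl1 encodes one of the dishevelled adaptors that carry the signal from Frizzled. It lay at 9.65, 9.90 and 10.10 in Chd8V986*/+ DM mice and 9.44, 9.91 and 10.49 in Chd8V986*/+ oil mice, against 9.40, 9.70 and 10.01 in WT DM mice and 9.24, 9.66 and 9.85 in WT oil mice. The difference was +0.22 (SE 0.067, adjusted p = 0.0175, with the block 2.36e-04), higher in the mutant in 15 of 19 pairs. The call was lost without batch 4 (+0.22, 0.0598). Dvl3, a second dishevelled gene, differed by +0.07 and was called with the block only (adjusted p = 0.0264, against 0.129 without).

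The other 5 members called only with litter as a block were receptors, co-receptors and ligands. Among receptors, Fzd3, which guides axon growth, lay at 12.55, 12.86 and 13.10 in Chd8V986*/+ DM mice and 12.26, 12.87 and 13.12 in Chd8V986*/+ oil mice, against 12.66, 12.98 and 13.27 in WT DM mice and 12.74, 13.00 and 13.34 in WT oil mice. Its difference was -0.16 (adjusted p = 1.68e-04 with the block, 0.0595 without), lower in the mutant in 15 of 19 pairs. The same number of pairs was lower for the co-receptor Lrp6 (-0.09, 0.0219 with the block, 0.172 without) and higher for the receptor Fzd2 (+0.15, 0.0424 and 0.153). Of the ligands, Wnt4 differed by +0.09 (0.0337 with the block, 0.0783 without, higher in 14 of 19 pairs) and Wnt5a, a ligand best known for beta-catenin-independent signaling, by -0.12 (0.0429 and 0.113, lower in 15 of 19 pairs). In all 5 the mutant and WT ranges overlapped.

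The 2 oil litters of batch 1 weighed on these results. In them Apc was 0.40 and 0.39 higher in the mutant, Dvl1 0.65 and 0.69, and Gsk3a 0.39 and 0.45, while Fzd3 stood at -0.55 and -0.48 and Gsk3b at -0.35 and -0.19. The ribosomal protein genes moved with them, and their part in the result was not tested. Without these litters, an alternative chosen after seeing the data, 2 members were called (9.77% of all genes): Apc (+0.09, adjusted p = 0.0476) and Ctnnb1, the gene of beta-catenin (-0.07, 0.0062), while Dvl1 stood at +0.16 (0.109) and Gsk3b at -0.11 (0.104). With litter as a block as well, Apc (0.0168), Ctnnb1 (9.90e-04), Dvl1 (0.00668), Fzd3 (0.0048) and Gsk3b (8.32e-04) were called, against 21.5% of all genes.

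Ctnnb1 is given here after its values were seen. With all litters it lay at 14.90, 15.00 and 15.07 in Chd8V986*/+ DM mice and 14.87, 14.96 and 15.28 in Chd8V986*/+ oil mice, against 14.96, 15.04 and 15.07 in WT DM mice and 14.96, 15.01 and 15.15 in WT oil mice, and its difference of -0.03 (SE 0.021, adjusted p = 0.251) was not called. In the batch 1 oil litters it was 0.14 and 0.31 higher in the mutant. It was lower in the mutant in 13 of 19 pairs at 12 months, in 16 of 19 pairs at PND 5 and in 5 of 5 pairs at 18 months, where 1 mutant was paired with both of its WT littermates.

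**Figure D2:**
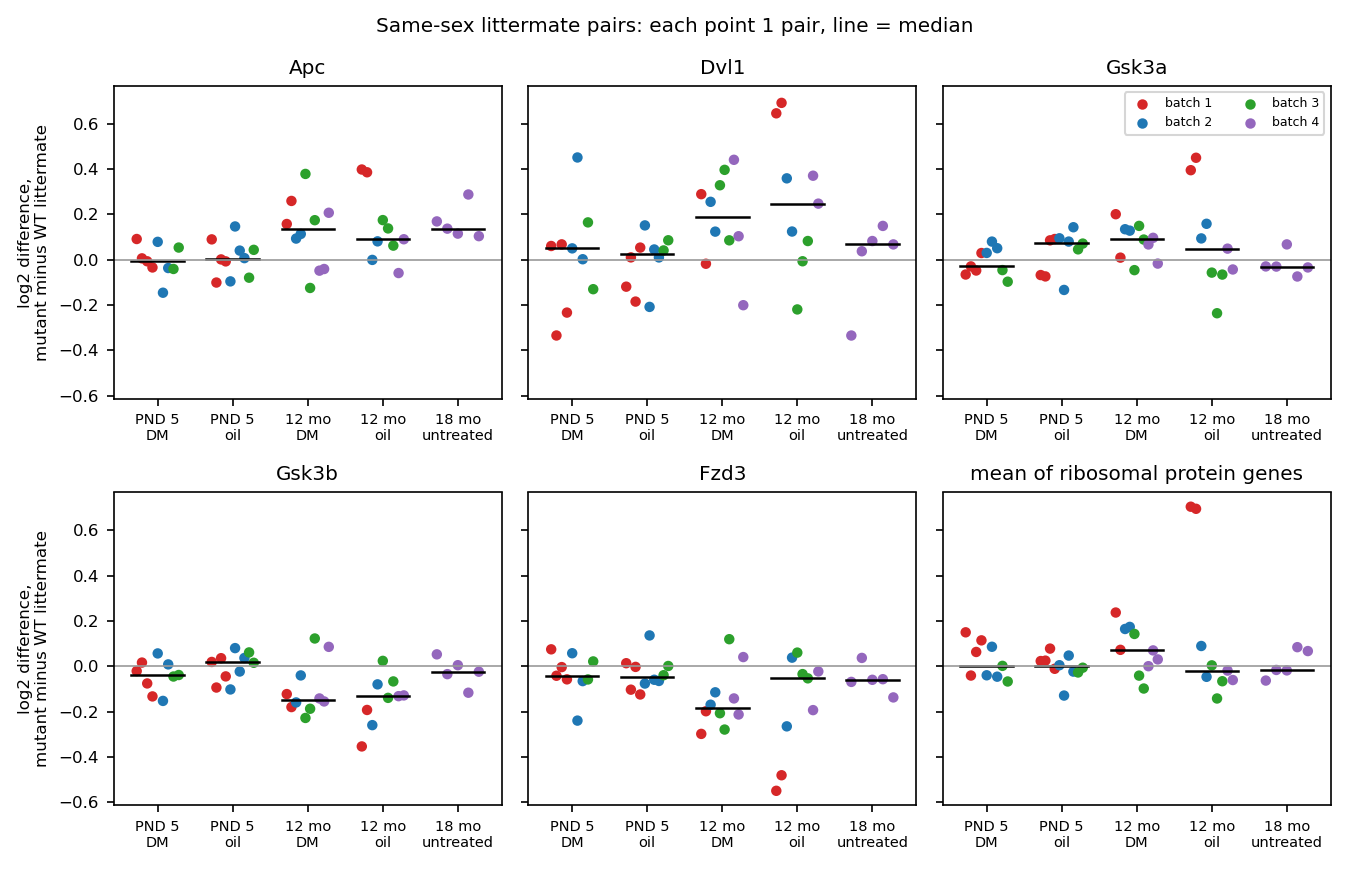
Difference between each mutant (Chd8V986*/+) and its WT littermate of the same sex, as a log2 difference, for Apc, Dvl1, Gsk3a, Gsk3b, Fzd3 and the mean of 76 ribosomal protein genes, by age and exposure, with points coloured by batch. At 12 months in oil the 2 pairs of batch 1 lie at 0.70 and 0.69 for the ribosomal mean, apart from the others.

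Taken by exposure, 0 of 45 members were called by limma at 12 months, in DM (background 3.86%) or in oil (1.97%), with 4 in DM and 3 in oil at an unadjusted p under 0.05 (19.9% and 18.8% of all genes). With litter as a block 5 were called in DM, against 14.6% of all genes, namely Apc (+0.12, adjusted p = 0.0447), Dvl1 (+0.18, 0.0409), Fzd3 (-0.15, 0.0183), Gsk3b (-0.10, 0.024) and Wnt5a (-0.20, 0.0354). In oil 4 were called with the block, against 15% of all genes, namely Apc (+0.14, 0.0216), Dvl1 (+0.25, 0.00709), Fzd3 (-0.17, 0.0112) and Gsk3b (-0.15, 0.00264). Among the 3 members of lowest p in DM was Sfrp5, a secreted Frizzled-related inhibitor, at 3.96, 4.12 and 4.49 in Chd8V986*/+ DM mice against 3.07, 3.98 and 4.37 in WT DM mice, a difference of +0.26 (adjusted p = 0.199).

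Beyond the 46 genes, 6 of 53 further canonical pathway genes rose and 8 fell in 12-month Chd8V986*/+ mice with both exposures averaged, where 7.81% of all genes were higher and 9.12% lower. With litter as a block 9 of the 53 rose and 17 fell, against 32.1% of all genes called. Tle2, a Groucho co-repressor, differed by +0.36 (SE 0.087, adjusted p = 0.003), Csnk1g2, a casein kinase, by +0.31 (SE 0.068, 0.00106) and Apc2, a neuronal paralog of Apc, by +0.20 (SE 0.046, 0.00162). Tcf3 (+0.29, 3.76e-04), which the list holds, is in mouse nomenclature the helix-loop-helix factor E2A and not the TCF/LEF factor. Of 27 genes of planar polarity and beta-catenin-independent signaling 0 rose and 3 fell: Vangl2, a core polarity protein (-0.19, SE 0.029, 4.79e-06), Camk2d (-0.15) and Mapk10 (-0.10), both kinases. Of 10 cadherin complex genes 2 fell, Cdh11 (-0.14) and Cdh2 (-0.10), and of 16 beta-catenin target genes known from other tissues, 6 of which are members, 0 were called. With the block 8 planar polarity genes fell and 0 rose, 2 cadherin complex genes fell and 1 rose, and 0 target genes were called.

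At PND 5 no member was called between genotypes by limma: 0 of 45 in DM (background 0.226%), in oil (0.562%) and with both exposures averaged (1.97%), with 5, 2 and 7 members at an unadjusted p under 0.05 (6.06%, 7.44% and 12% of all genes). In the average, the median difference of the members was -0.03, against a median of -0.0036 over all genes. Comparing littermates called 1 member, Wnt7b, against 3.26% of all genes.

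Wnt7b, a ligand of cortical neurons that acts on brain vessels and dendrites, lay at 11.91, 12.04 and 12.25 in Chd8V986*/+ DM mice and 11.91, 12.10 and 12.35 in Chd8V986*/+ oil mice, against 12.06, 12.15 and 12.47 in WT DM mice and 12.06, 12.19 and 12.41 in WT oil mice. The ranges overlapped, with the lowest mice of each exposure among the mutants. Its difference was -0.12 with the block (SE 0.033, adjusted p = 0.0204) and -0.10 without (SE 0.041, 0.239), lower in the mutant in 15 of 19 pairs. Without the female pair of litter B the blocked difference was -0.14 (adjusted p = 0.00782).

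The members of lowest p that were not called included Fzd6, a receptor of planar polarity, at 8.29, 8.73 and 8.88 in Chd8V986*/+ DM mice and 8.49, 8.60 and 8.87 in Chd8V986*/+ oil mice, against 8.50, 8.84 and 9.03 in WT DM mice and 8.50, 8.77 and 8.94 in WT oil mice (difference -0.14, SE 0.044, adjusted p = 0.073). It was lower in the mutant in 13 of 19 pairs, and was called without batch 1 (-0.18, adjusted p = 0.048). Wls, which escorts Wnts to the cell surface, differed by -0.16 (SE 0.057, 0.17).

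Within one exposure the lowest p values belonged to other members. In DM, Lef1, a nuclear partner of beta-catenin, lay at 5.72, 6.39 and 6.71 in Chd8V986*/+ mice against 6.37, 6.60 and 7.14 in WT mice (-0.30, adjusted p = 0.266), and the ligand Wnt2 at 3.00, 3.38 and 3.62 against 3.32, 3.59 and 3.96 (-0.26, 0.442). In oil, Wnt10a, a ligand at the low end of the scale, lay at -1.88, -1.48 and -1.10 in Chd8V986*/+ mice against -1.96, -1.55 and -1.46 in WT mice (+0.24, 0.437). Ctnnb1 in oil lay at 15.66, 15.72 and 15.78 in Chd8V986*/+ mice against 15.71, 15.78 and 15.83 in WT mice (-0.06, 0.562), and the ligand Wnt7a at 9.74, 9.92 and 10.15 against 9.98, 10.09 and 10.37 (-0.13, 0.681). None of these passed the test. Of the 53 further canonical genes 1 rose and 2 fell with exposures averaged, against 1.97% of all genes called (with the block 0 rose and 2 fell, against 3.26%): Draxin, an axon guidance protein (+0.23, SE 0.054, adjusted p = 0.00697, with the block 0.0875), Notum, an enzyme that inactivates Wnts (-0.23, SE 0.06, 0.0242), and Dkkl1 (-0.20, SE 0.055, 0.0304).

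In untreated 18-month cortex 0 of 45 members were called by limma (background 0.134%, or 22 of 16419 genes), with 3 at an unadjusted p under 0.05 (12.4% of all genes). The lowest p was that of Apc. It had 14.12, 14.12, 14.08, 14.06 and 14.15 in the 5 Chd8V986*/+ mice, against 13.87 to 14.05 (median 13.95) in the 6 WT mice. Every mutant lay above every WT mouse. The difference was +0.16 (SE 0.031, unadjusted p = 1.25e-04, adjusted p = 0.0588, with litter as a block 0.111), and Apc was higher in the mutant in 5 of 5 littermate pairs, by 0.10 to 0.29. These pairs come from 4 litters, since both WT mice of litter 7 were set against its 1 mutant, and these 2 pairs gave both ends of the range. It was called in a fit of genotype alone (+0.16, adjusted p = 0.0289). The other members of low p were the receptor Fzd5, at 8.15, 8.12, 8.23, 8.13 and 8.13 in Chd8V986*/+ mice against 8.20 to 8.29 in WT mice (-0.10, adjusted p = 0.267), and Dkk3, at 13.09, 13.01, 13.03, 13.10 and 13.06 against 12.96 to 13.31 (-0.11, 0.364). In the same mice Gsk3b stood at -0.01 (SE 0.03), Fzd3 at -0.04 (SE 0.031) and Dvl1 at -0.06 (SE 0.062). The 18-month table was normalized separately, so its levels are not set against those of the other ages.

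Whether genotype acted differently with age was tested between 12 months and PND 5 in oil. No member differed (0 of 45 by limma, background 0.00646%, 2 at an unadjusted p under 0.05, against 8.57% of all genes). The values were +0.29 (SE 0.13, adjusted p = 0.579) for Dvl1, -0.18 (SE 0.089, 0.58) for Gsk3b and +0.11 (SE 0.063, 0.587) for Apc. So the calls at 12 months and their absence at PND 5 are not shown to differ.

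Between DM and oil at PND 5, 7 members were called in WT mice and all 7 were higher in DM: the ligands Wnt2 and Wnt4, Wls, the receptor Fzd7, the co-receptor Lrp5, the feedback target Axin2 and the nuclear factor Pygo2. This was 15.6% of 45 members, against 8.71% of all genes called in either direction and 4.89% called higher. In Chd8V986*/+ mice 1 member was called, Axin2 (background 2.31%). Exposure was given to dams, and with litter as a random effect 0 members were called in either genotype (0.0259% of all genes in Chd8V986*/+ and 0% in WT mice), with adjusted p from 0.0767 to 0.21. The animal-level calls therefore hold for mice counted as independent within 7 DM and 6 oil litters.

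Wnt2, whose level was described above for the DM mice, lay at 3.00, 3.38 and 3.62 in Chd8V986*/+ DM mice against 2.98, 3.21 and 3.83 in Chd8V986*/+ oil mice. In WT mice it lay at 3.32, 3.59 and 3.96 in DM against 2.54, 3.17 and 3.64 in oil, a difference of +0.42 (SE 0.089, adjusted p = 0.00339, with litter 0.0767). The difference between the genotypes in the DM effect was -0.35 (SE 0.13, adjusted p = 1), so the genotypes are not shown to differ in it. Litter means, here and below, take both genotypes together. For Wnt2 they were 3.34 to 3.61 in DM and 3.15 to 3.46 in oil, and 4 of 7 DM litters lay above every oil litter. Such counts were not particular to called members: among those not called they were 6 of 7 for Wnt5a and Fzd9, and 0 for Fzd3 and Sfrp1. Wnt4 lay at 7.14, 7.39 and 7.55 in WT DM mice against 7.08, 7.22 and 7.36 in WT oil mice (+0.16, adjusted p = 0.0386, with litter 0.2), with 5 of 7 DM litters above every oil litter. Wls lay at 6.44, 6.77 and 7.15 in WT DM mice against 6.33, 6.53 and 6.85 in WT oil mice (+0.25, 0.0396, with litter 0.19).

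Of the receptors, Lrp5 lay at 8.82, 9.02 and 9.26 in WT DM mice against 8.71, 8.75 and 8.91 in WT oil mice, a difference of +0.22 (SE 0.048, adjusted p = 0.00369, with litter 0.0873). Its litter means were 8.75 to 9.02 in DM and 8.71 to 8.84 in oil, with 6 of 7 DM litters above every oil litter. Fzd7 lay at 5.70, 6.06 and 6.56 in WT DM mice against 5.30, 5.77 and 6.18 in WT oil mice (+0.34, SE 0.099, 0.0231, with litter 0.13), and 3 of 7 DM litters were above every oil litter. Pygo2, a chromatin reader in the beta-catenin complex, lay at 11.03, 11.11 and 11.27 in WT DM mice against 10.91, 11.01 and 11.19 in WT oil mice (+0.11, 0.0376, with litter 0.21). It lost its call without the female pair of litter B (+0.11, 0.0559).

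Axin2, a destruction complex scaffold that beta-catenin itself induces, was the member called in both genotypes. In Chd8V986*/+ mice it lay at 8.20, 8.47 and 8.62 in DM against 7.90, 8.21 and 8.36 in oil (+0.25, SE 0.059, adjusted p = 0.0159, with litter 0.112). In WT mice it lay at 8.16, 8.41 and 8.68 in DM against 8.00, 8.25 and 8.47 in oil (+0.19, SE 0.053, 0.0182, with litter 0.137). Litter means were 8.29 to 8.59 in DM and 8.09 to 8.35 in oil, and 5 of 7 DM litters lay above every oil litter. Within batches 1, 2 and 3 the difference was +0.31, +0.18 and +0.26 in Chd8V986*/+ mice and +0.24, +0.26 and +0.08 in WT mice. The call in Chd8V986*/+ mice was lost without any 1 of these batches.

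In WT mice the other 6 members also lay higher in DM within each batch, with Wls at +0.24, +0.50 and +0.0013 and Lrp5 at +0.25, +0.16 and +0.24 in batches 1, 2 and 3. These members, like Axin2, were chosen by their calls in the same mice, so the shared direction largely follows from the choice. Without batch 2 only Lrp5 kept its call. In males alone Wnt2 and Lrp5 were called and in females alone 0 members. Over the members the median difference was +0.05 in Chd8V986*/+ and +0.08 in WT mice, against -0.0086 and -0.0035 over all genes.

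Markers of meningeal fibroblasts moved with exposure in the same mice. Of 8 markers, 1 was called higher in Chd8V986*/+ DM mice (median difference +1.13, background 2.31%) and 6 in WT DM mice (median +1.24, background 8.71%), Col1a1 by +1.72 in WT. With litter as a random effect 0 of the 8 were called in either genotype. The mean of the 8 lay at 5.16, 8.03 and 9.30 in Chd8V986*/+ DM mice against 5.16, 6.57 and 8.39 in Chd8V986*/+ oil mice, and at 6.59, 8.31 and 9.46 in WT DM mice against 5.96, 7.09 and 8.12 in WT oil mice. In WT mice 3 of 8 mural and 2 of 12 endothelial markers were also called higher, against 4.89% of all genes, and 0 of either list with litter in the model. The part of these cells in the 7 calls was not tested, and in bulk tissue more cells of a type and more RNA per cell cannot be told apart.

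**Figure D3:**
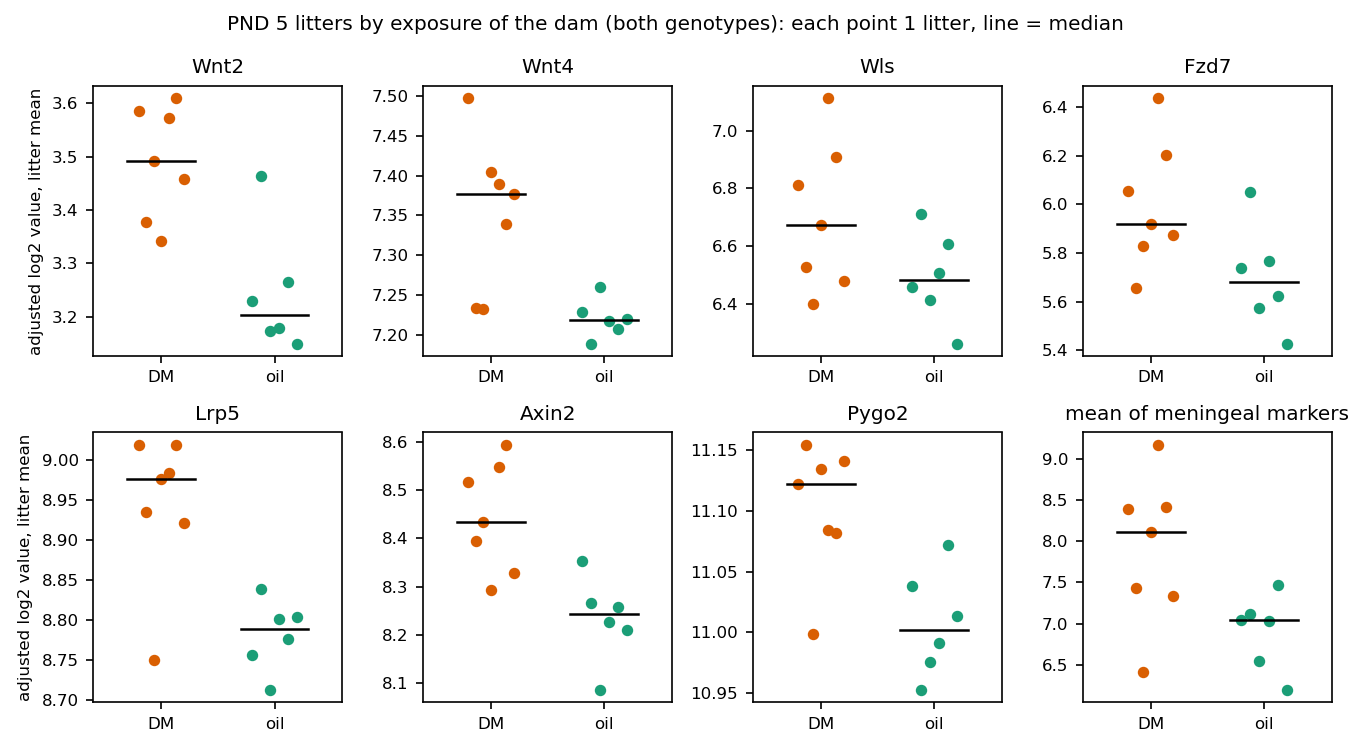
Mean level of each PND 5 litter (1 point per litter, both genotypes, log2) in 7 DM litters and 6 oil litters for Wnt2, Wnt4, Wls, Fzd7, Lrp5, Axin2, Pygo2 and the mean of 8 meningeal fibroblast markers. DM litters lie above every oil litter in 6 of 7 cases for Lrp5 and Pygo2 and in 3 of 7 for Fzd7 and Wls; the groups overlap in every panel.

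In the further pathway lists the calls in WT DM mice at PND 5 are read against 8.71% of all genes called (4.89% higher), and with litter in the model 0 were called in each list. Of 53 further canonical genes 4 rose, among them Tcf3 (E2A, +0.30, adjusted p = 0.0101) and the beta-catenin cofactor Bcl9l (+0.20, 0.0364). Of 27 planar polarity genes 3 rose, namely Celsr2 (+0.30), Ror1 (+0.30) and Nfatc2 (+0.21). Of 16 target genes Axin2 and Bmp4 (+0.48, 0.0253) rose. Of 10 cadherin complex genes Cdh1 (+1.23, 0.0191) and Jup (+0.16) rose and Ctnna2 (-0.09) fell. In Chd8V986*/+ mice Tcf3 (+0.29, 0.0462) was the call among the 53.

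At 12 months, long after exposure ended, 0 members differed between DM and oil mice by limma in Chd8V986*/+ (background 0.00646%) or WT mice (0%), and 0 did so at an unadjusted p under 0.05 in either genotype (3.09% and 3.35% of all genes). Member differences ran from -0.16 to +0.13 in Chd8V986*/+ and from -0.15 to +0.11 in WT mice. For Axin2 the levels were 8.41, 8.53 and 8.76 in Chd8V986*/+ DM mice and 8.41, 8.53 and 8.67 in WT DM mice, against 8.44, 8.52 and 8.74 in Chd8V986*/+ oil mice and 8.46, 8.54 and 8.73 in WT oil mice. The difference between genotypes in the DM effect was called for 0 members at PND 5 and at 12 months (background 0% at both), with 3 members at PND 5 and 0 at 12 months at an unadjusted p under 0.05 (1.47% and 2.6% of all genes).

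Between 12 months and PND 5 in WT oil mice, 36 of 45 members were called (80.0%), 17 higher and 19 lower at 12 months, against 78.8% of all genes (39.5% higher and 39.4% lower). Members thus changed with age about as often as genes in general. The largest changes were in a ligand and in secreted inhibitors: Wnt10a and Dkk3 were higher, and Sfrp2 and Sfrp1 lower, at 12 months. Wnt10a lay low at PND 5, in separate bands of values, and read counts were not used, so the size of its difference is uncertain. With litter as a random effect 32 were called (75.9% of all genes), and Wnt5a, Fzd1, Lrp5 and Tcf7 lost their calls (adjusted p = 0.101, 0.0618, 0.0767 and 0.0649). The 12-month mice were all male and were all dissected by dissector 2, so sex and dissector were estimated among PND 5 mice.

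Of 7 ligands 4 rose and 3 fell with age. Wnt10a lay at 1.00, 1.11 and 1.70 at 12 months against -1.96, -1.55 and -1.46 at PND 5 (+2.90, SE 0.13, adjusted p = 4.62e-34), where its values fell into separate bands, of 5 mice at -1.96 to -1.89 and 7 mice at -1.56 to -1.46. Wnt2 lay at 4.38, 4.89 and 5.14 at 12 months against 2.54, 3.17 and 3.64 at PND 5 (+1.63, SE 0.12), and Wnt4 (+0.51) and Wnt5a (+0.21) were also higher. Wnt7b lay at 10.91, 11.00 and 11.25 at 12 months against 12.06, 12.19 and 12.41 at PND 5 (-1.14, SE 0.075), and Wnt7a (-0.59) and Wnt3 (-0.42) were also lower. Both secretion genes rose. Wls lay at 7.88, 7.96 and 8.12 at 12 months against 6.33, 6.53 and 6.85 at PND 5 (+1.43, SE 0.11), and Porcn, which adds the lipid that Wnts need, differed by +0.66.

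Of 11 receptors and co-receptors 6 rose and 3 fell. Fzd2 lay at 5.66, 5.84 and 6.09 at 12 months against 4.49, 4.81 and 5.23 at PND 5 (+0.97, SE 0.13). Fzd4, a receptor of brain vessels, differed by +0.74, Fzd7 by +0.68, Fzd5 by +0.43, Lrp6 by +0.35 and Fzd1 by +0.22. In contrast Fzd9 lay at 8.18, 8.51 and 8.83 at 12 months against 9.65, 9.81 and 9.93 at PND 5 (-1.27, SE 0.10), and Fzd8 (-0.79) and Lrp5 (-0.15) were lower. Fzd3 (-0.04, adjusted p = 0.719) and Fzd6 (-0.16, 0.0682) did not pass the test.

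Inside the cell most called members were lower at 12 months. Apc lay at 15.90, 15.92 and 16.07 at 12 months against 17.16, 17.32 and 17.45 at PND 5 (-1.36, SE 0.056, adjusted p = 1.12e-35). The destruction complex as a whole had 4 lower members of 6, with Ctnnb1 at -0.75 (SE 0.037), Axin1 at -0.51 and Gsk3b at -0.41, 1 higher member, Axin2 (+0.31), and Gsk3a not called (-0.0016). Of the dishevelled genes Dvl3 fell (-0.85, SE 0.055), while Dvl1 and Dvl2 did not pass the test (-0.15 for each). Of 7 nuclear effectors Bcl9 (-0.82), Tcf7l1 (-0.34), Pygo2 (-0.28) and Tcf7 (-0.23) fell and Lef1 rose (+0.40), while Tcf7l2 (+0.18) and Pygo1 (-0.18) did not pass.

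The inhibitors split. Dkk3, a divergent Dickkopf protein of neurons, lay at 9.57, 9.64 and 9.76 at 12 months against 7.45, 7.81 and 7.91 at PND 5 (+1.87, SE 0.066, adjusted p = 4.69e-40), and Sfrp5 differed by +0.66. Sfrp2, a secreted Frizzled-related protein, lay at 10.08, 10.27 and 10.51 at 12 months against 12.43, 12.61 and 12.69 at PND 5 (-2.29, SE 0.074, 3.02e-42). Sfrp1 lay at 11.69, 11.91 and 12.05 at 12 months against 13.44, 13.73 and 14.07 at PND 5 (-1.84, SE 0.096). Dkk2 lay at 7.39, 7.73 and 8.00 at 12 months against 8.79, 8.94 and 9.12 at PND 5 (-1.23, SE 0.11), and Wif1 (-0.22, 0.102) did not pass. Of the others, Rnf43, a ubiquitin ligase that removes Frizzled receptors, lay at 4.56, 4.77 and 4.88 at 12 months against 3.73, 4.02 and 4.28 at PND 5 (+0.76, SE 0.11), Nkd1, which binds dishevelled, fell (-0.50), and Znrf3 did not pass (-0.09). The ages did not overlap in any of the 12 members described with their levels. These were chosen for the largest differences, so the separation largely follows from the choice. How many of all genes separate in this way was not counted.

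**Figure D4:**
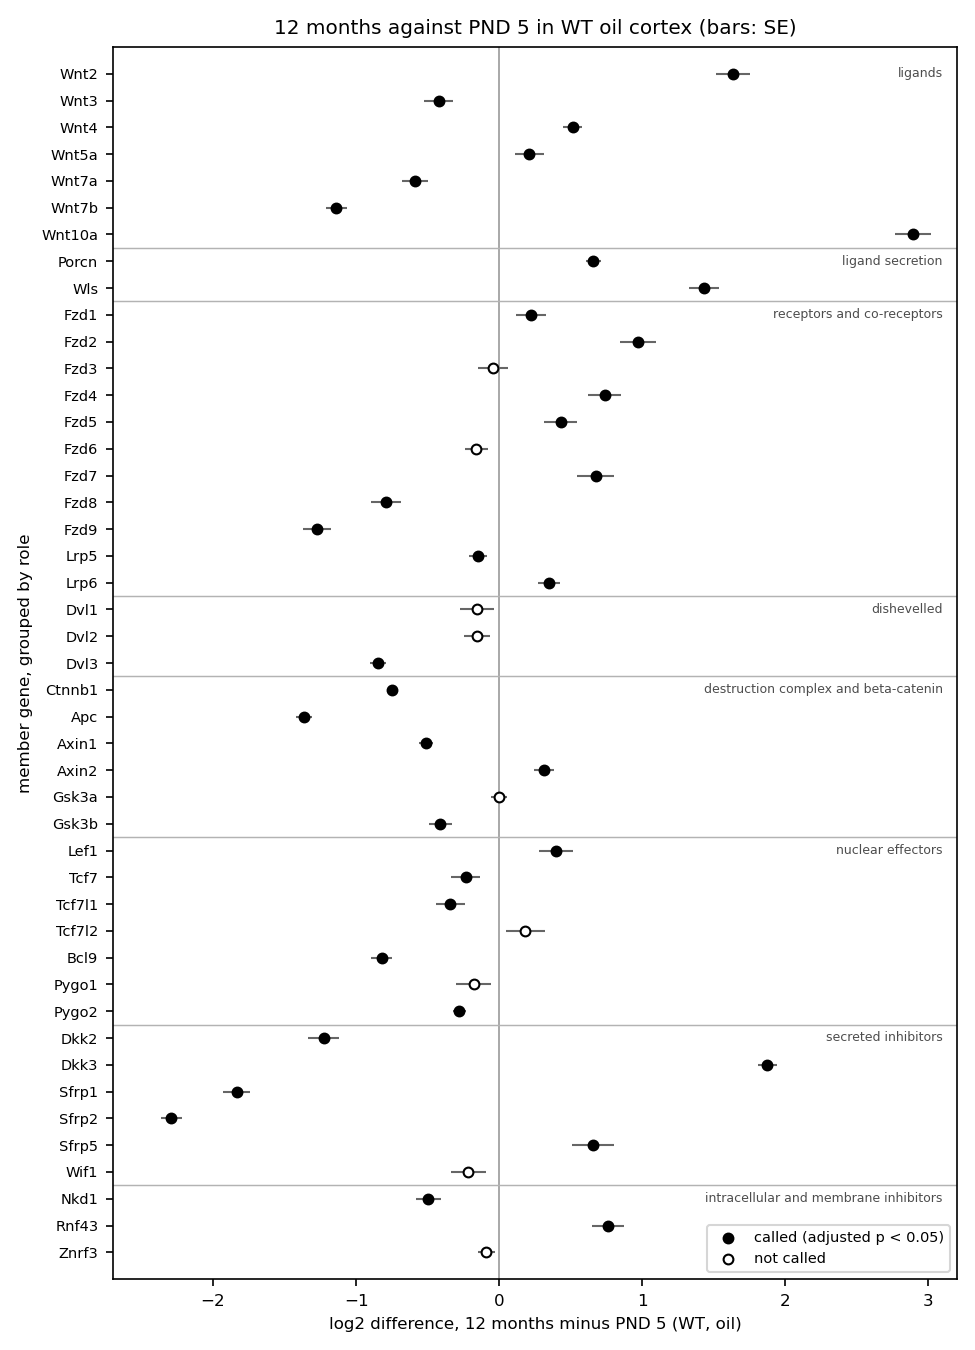
Log2 difference between 12 months and PND 5 in WT oil mice for 45 members grouped by role, with bars of 1 SE. Wnt10a (+2.90) and Dkk3 (+1.87) lie farthest to the positive side, and Sfrp2 (-2.29), Sfrp1 (-1.84) and Apc (-1.36) farthest to the negative side.

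**Figure D5:**
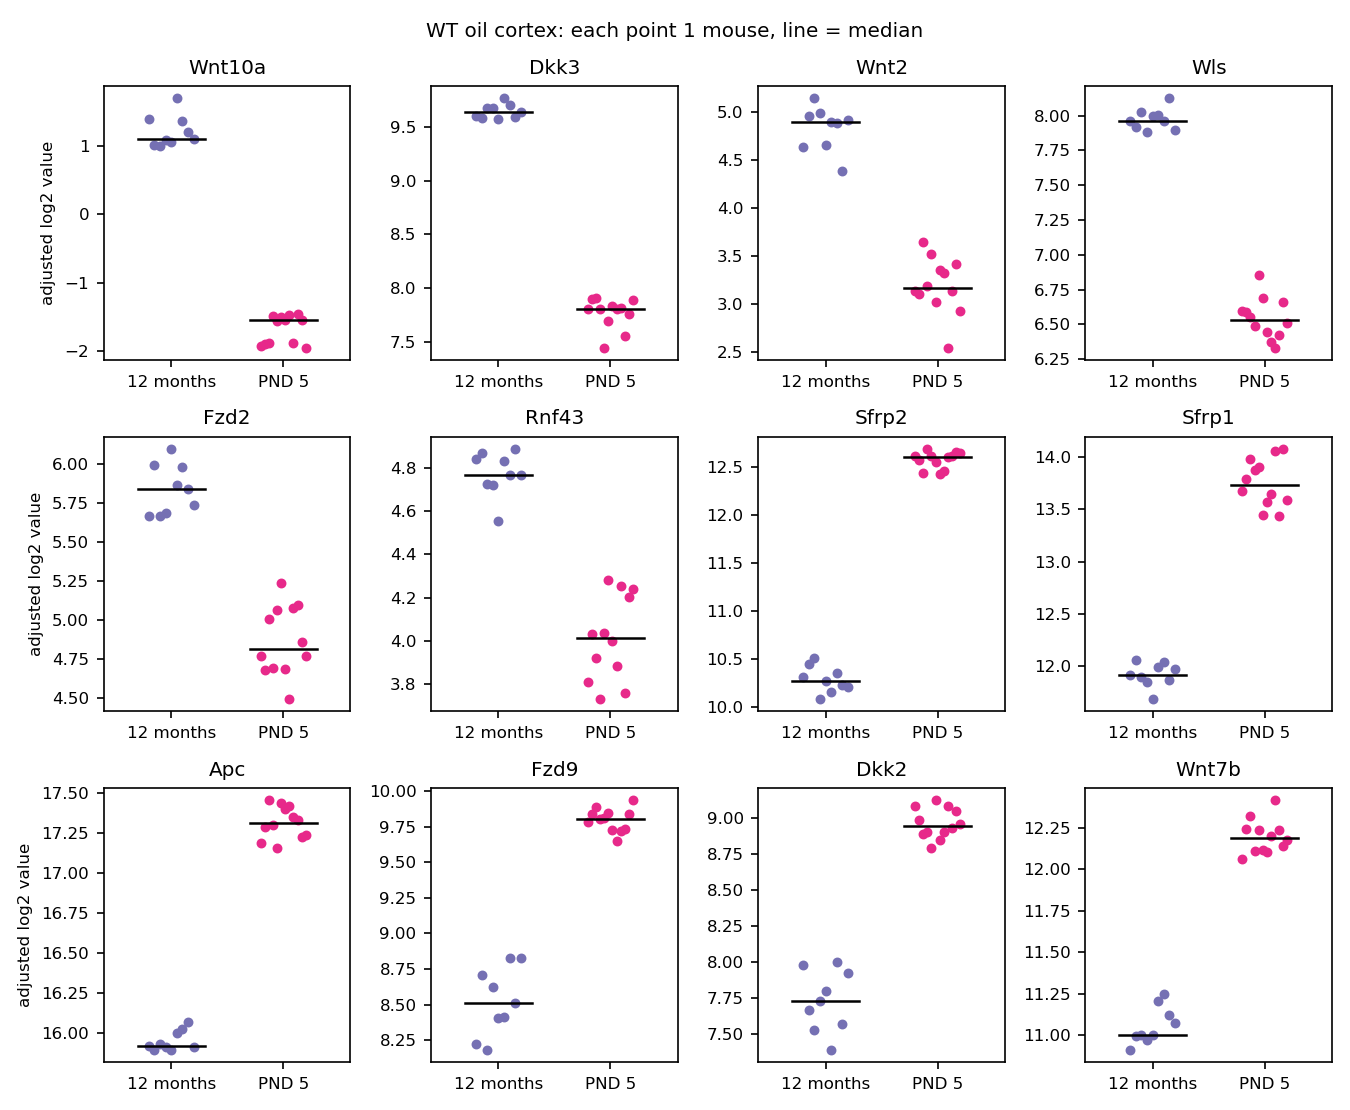
Level in each mouse (log2, 1 panel per gene with its own axis) of the 6 higher and 6 lower members of largest difference, in 9 WT oil mice of 12 months and 12 of PND 5. In these 12 panels, chosen for large differences, the ages do not overlap, and Wnt10a at PND 5 falls into bands of 5 and 7 mice.

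Markers of some cell types changed with age alongside these values, while the mean of 8 excitatory neuron markers had a median of 11.48 at both ages. Counts of called genes in all lists here are read against 78.8% of all genes called with age (39.5% higher and 39.4% lower). All 6 tested markers of mature oligodendrocytes (median +5.48) and all 8 of microglia (median +1.89) rose, and all 8 of immature neurons and dividing cells fell (median -4.12). The part of these cells in the members' changes was not tested. Here too, more cells of a type and more RNA per cell cannot be told apart. Of the further lists, 15 of 53 canonical genes rose and 30 fell, with Draxin (-6.06) and Nkd2 (-2.64) lowest and the R-spondin Rspo1 at +2.09. Of 6 other ligands tested 3 rose, Wnt9a (+1.50), Wnt10b (+0.92) and Wnt16 (+0.57), and Wnt11 fell (-0.34). Of 27 planar polarity genes 14 rose and 11 fell, among them Camk2a (+2.88), Vangl2 (-1.92), Daam1 (-1.68) and Daam2 (+1.65). Of 16 target genes 6 rose and 8 fell, with Myc at -3.37, Apcdd1 at -1.89, Lgr5 at +1.43 and Cd44 at -1.37, and of 10 cadherin complex genes 3 rose and 7 fell, with Cdh4 at -1.41 and Cdh2 at -0.96.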

How the data were processed

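RNA-seq reads of 93 cortices (82 of PND 5 and 12 months, 11 of 18 months) were processed by the authors with cutadapt 1.12, STAR 2.5.2b and Salmon against mm10. The deposited values are log2 levels that the authors made with the variance-stabilizing transformation of DESeq2, after which batch, sex, dissector and litter number (litter rank at 18 months) were removed linearly, as tested on the tables. Read counts were not used here, so the depth of each library is unknown.

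Genes were tested where values varied and no same-sex littermates were identical (tolerance 1e-06). limma 3.58.1 in R 4.3.3 (statmod 1.5.0) was fitted across all genes with intensity trend, two-sided, on 8 groups of age, genotype and exposure with the removed terms as covariates, and on genotype with litter rank at 18 months. Calls had a Benjamini-Hochberg adjusted p under 0.05. Litter letters in the labels pair mice. Residuals of 74 littermate pairs had a median correlation of 0.22, against -0.015 in 3247 other pairs, so fits with litter as a block were run: as a fixed term between genotypes and as a random effect (correlation 0.339) otherwise. The fit was tested on simulated data. The result of that test is not given, so it does not show whether calls between DM and oil hold for mice that share litters.

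Members with group values are those called in a genotype or exposure comparison, with or without the block, the 3 of lowest p in each genotype comparison, and the 6 higher and 6 lower of largest difference with age. From other lists up to 4 called genes of largest difference were named. The members and lists were chosen with earlier results of these data known. Promoters come from RefSeq (GRCm38.p6).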

Additional observations from a re-analysis of the deposited data

Results flagged for a closer look

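Of 79 sets of group values checked, 5 held a mouse far from the others of its group, and chance alone gives about 1 in 20. Only groups of at most 10 mice were checked, which leaves out the 12 WT DM and 12 WT oil mice of PND 5. Lef1 was lowest in PND 5 Chd8V986*/+ DM male 5, at 5.72 against a next value of 6.20 and a group median of 6.39. Fzd6 was lowest in PND 5 Chd8V986*/+ DM female 3, at 8.29 against 8.58 and a median of 8.73. Chd8 was highest in the library labelled PND 5 Chd8V986*/+ DM female 1, at 12.46 against 11.86 and a median of 11.70. Rnf43 was lowest in 12-month WT oil mouse 5, at 4.56 against 4.72 and a median of 4.77. Fzd5 was highest in 18-month Chd8V986*/+ mouse 3, at 8.23 against 8.15 and a median of 8.13.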

How the results depend on the processing

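No named difference changed sign under any alternative. Counts of called members moved as follows. With litter as the replicate block they were 1 between genotypes at PND 5, averaged, 5 in DM, 4 in oil and 10 averaged at 12 months, and 0 for DM against oil in both genotypes at PND 5. With the block and without the 12-month oil litters of batch 1 they were 7 in DM, 1 in oil and 5 averaged. With the block and without the female pair of PND 5 litter B they were 1 between genotypes at PND 5, averaged, and 0 for DM against oil in Chd8V986*/+ and WT mice.

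At an adjusted p under 0.1 the counts were 1 averaged at PND 5, 1 in oil and 6 averaged at 12 months, 2 for DM in Chd8V986*/+ mice and 1 at 18 months (Apc, also 1 with genotype alone). Sample weights gave 3 averaged at PND 5, 1 in oil and 2 averaged at 12 months (Ctnnb1 and Dvl1, with Apc and Gsk3b lost), and 5 in Chd8V986*/+ and 14 in WT mice for DM. Each age on its own gave 7 for DM in Chd8V986*/+ mice, and 3 in oil and 8 averaged at 12 months. Without batch 1 there were 2 averaged at PND 5 and 0 for DM in Chd8V986*/+ mice. Without batch 2 there were 0 and 1 for DM in Chd8V986*/+ and WT mice. Without batch 3 there were 0 and 3 for these, and 2 in oil and 5 averaged at 12 months. Without batch 4 there was 1 averaged at 12 months. PND 5 males alone gave 0 and 2, and females alone 0 and 0, for DM in Chd8V986*/+ and WT mice. The causes were not tested.

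Leaving out each mouse gave 2 to 6 members averaged (6 without WT DM mouse 7) and 0 to 1 in oil at 12 months (1 without Chd8V986*/+ oil mice 3 or 5), 0 to 1 averaged at PND 5 (1 without Chd8V986*/+ DM male 3, Chd8V986*/+ oil males 1 or 3, WT DM males 1 or 7, or WT oil female 5 or male 2), and 33 to 37 with age. At 18 months it gave 0 to 1 (Apc, without WT mouse 6). For DM at PND 5 it gave 0 to 3 in Chd8V986*/+ mice (0 without Chd8V986*/+ DM male 3, 3 without female 3) and 2 to 9 in WT mice (2 without WT DM male 5, 3 without WT oil male 4). In WT mice Wls and Pygo2 lost their calls in 12 of 24 cases each, Wnt4 in 10, Fzd7 in 4, Axin2 in 1, and Wnt2 and Lrp5 in none. Dvl1 at 12 months lost its call without 1 mouse (Chd8V986*/+ oil mouse 2), Gsk3b without 23 of 38 and Apc without none. Over the other alternatives age gave 30 to 40 members.

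With the depth of the libraries unknown, small differences of low genes such as Wnt10a, Wnt2 and Dkk1 cannot be judged against counting error. The stabilized scale compresses differences of low genes. Exposure varied between only 13 litters at PND 5, and all 12-month and 18-month mice were male. Nothing in the labels says that libraries of a mouse were repeated. Without litter as a block, p-values measure the spread between mice counted as independent, although exposure was given to whole litters. With litter as a fixed block they measure the spread of differences within litters, and as a random effect they take in the spread between litters.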
